A study of Mus musculus with 7 samples.

Results

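The claudins of the nephron are 10 genes chosen by symbol, Cldn1, Cldn2, Cldn3, Cldn4, Cldn7, Cldn8, Cldn10, Cldn14, Cldn16 and Cldn19, among the 45706 Ensembl genes of the deposited tables, and all 10 were found there. Their RNA was followed in the kidneys of 7 Slc7a9-/- mice, all male and 6 months old. Slc7a9 encodes a subunit of the renal cystine transporter, and its loss models cystinuria, the inherited loss of cystine into urine with stone formation. Of the 7 mice, 3 were untreated and 4 received L-ergothioneine, a dietary sulfur-containing antioxidant, in drinking water at 16 mg/kg/day. Treated and untreated mice share this genotype, no wild-type kidney enters the comparison, and the labels do not state how long treatment lasted. Mice are numbered within a group in the labels without naming litters or cages, and the p-values measure only the spread between these 7 samples.

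Claudins are membrane proteins that span the membrane several times and join neighbouring epithelial cells at the tight junction, where their extracellular loops either seal the space between cells or form charge-selective pores. The nephron uses a different set in each segment. Claudin-2 makes the leaky proximal tubule permeable to cations and water, claudin-10, claudin-16 and claudin-19 set the paracellular passage of sodium, calcium and magnesium in the thick ascending limb, and claudin-3, claudin-4, claudin-7 and claudin-8 line the tight distal nephron and collecting duct. Claudin-14 is an inhibitor of calcium passage in the thick ascending limb, and claudin-1 is a sealing claudin known in kidney from the parietal epithelium of Bowman's capsule.

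The libraries held 14843899 to 19791575 counts. TPM is the deposited length-corrected level. In untreated libraries 1 and 2 short non-coding RNA took 12.1% and 16.1% of it, against 37.5% to 48.7% in the other 5 libraries. Its part of the counts was smaller but split the same way, at 0.427% and 0.57% against 1.83% to 2.79%. Group differences below therefore come from counts, scaled between libraries by the trimmed mean of M-values (TMM) and given as CPM, counts relative to the library total, and TPM is used for levels and their order within a library. Kidney segment markers were present throughout, with Lrp2 of the proximal tubule at 8081 ± 893 CPM (SD, n = 3) and Umod of the thick ascending limb at 2679 ± 109 CPM in untreated kidneys. Adipocyte markers moved with the groups. Of 8 tested adipocyte markers 6 were called lower in treated kidneys, beside 3.57% of all genes tested (edgeR adjusted p under 0.05). Counts of Plin1, which encodes a fat droplet protein, were 66, 50 and 73 untreated against 3, 11, 10 and 6 treated. Cidea was at 0 counts in treated libraries 1 and 3, Ucp1 in treated library 1, and the untested Lep in treated libraries 1, 3 and 4. The list's summed level was 497 to 699 CPM untreated and 528 to 641 CPM treated, most of it Lpl, and the part of fat tissue in the claudin values was not tested.

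Treated kidneys held more RNA of 4 claudins, Cldn1, Cldn8, Cldn10 and Cldn2, and no claudin of the 10 passed as lower. In every one of these 4 genes all 4 treated libraries lay above all 3 untreated ones. Cldn1 differed most, at 1.69-fold, and the other 3 between 1.15-fold and 1.24-fold. Of the 10 members 9 had enough counts to be tested, and 4 higher and 0 lower of 9 compares with 3.58% higher and 3.57% lower, 7.16% in all, of the 15399 genes tested (edgeR quasi-likelihood test, adjusted p under 0.05). Groups that did not overlap with the treated one higher were found in 4 of the 9 members and in 9.46% of all genes tested. The members were chosen with earlier results of these data known, so these shares describe the list and do not test it. The median log2 fold change of the 9 was 0.09, against -0.0031 over all genes tested. The count of 4 rests on small differences in 3 of the genes: it was 1 without untreated library 1 or untreated library 3, 2 without treated library 1, 2 or 3, and 3 without untreated library 2 or treated library 4. Without untreated libraries 1 and 2 together the log2 fold changes were 0.59 for Cldn1, 0.38 for Cldn8, 0.29 for Cldn10 and 0.15 for Cldn2. That fit holds a single untreated library. In bulk kidney, a change in RNA per cell cannot be told apart from a change in the number of cells of a segment.

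**Figure D1:**
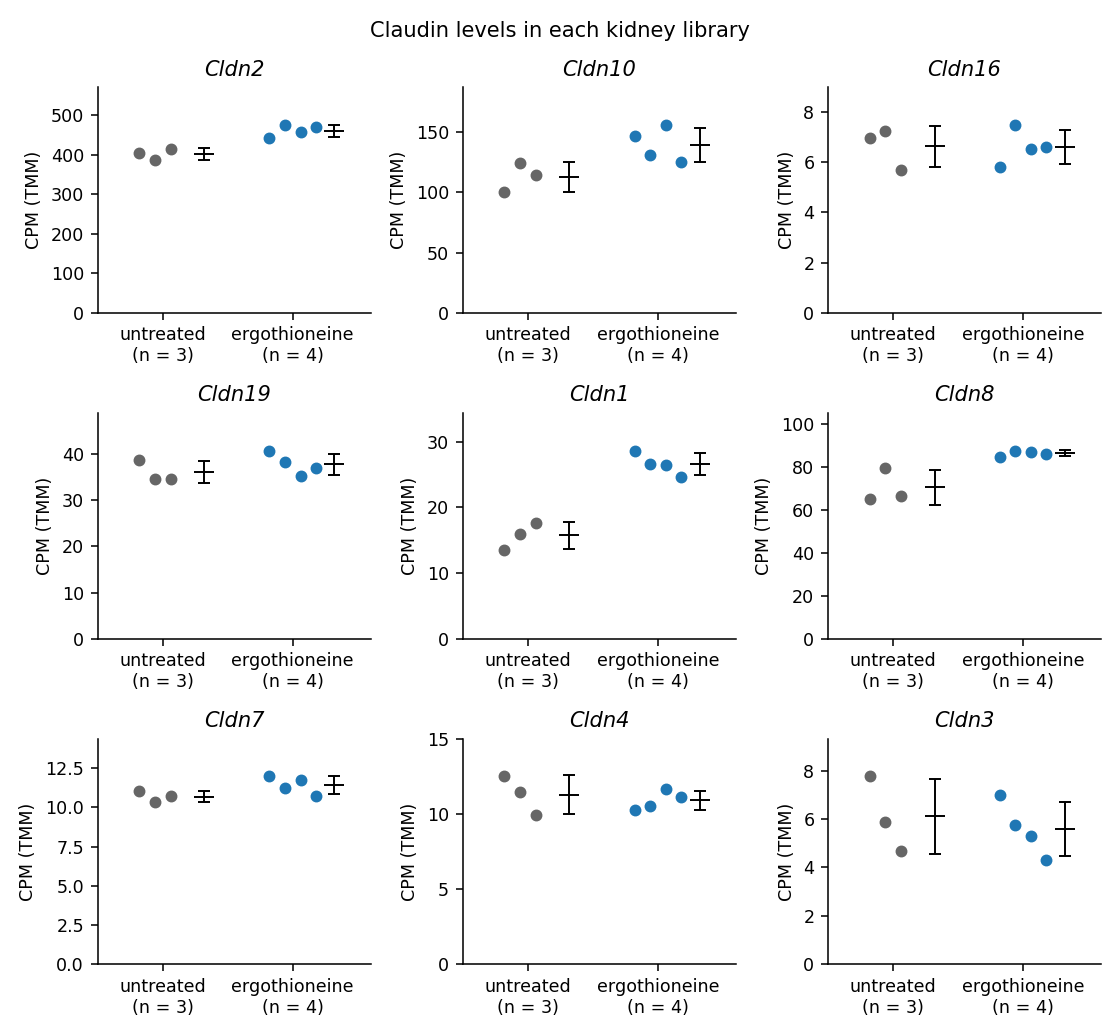
TMM-scaled CPM of the 9 tested claudins, 1 panel each with a linear axis from 0. Points are libraries (3 untreated in grey, 4 ergothioneine-treated in blue) and the bars give the mean ± SD of a group. The groups do not overlap for Cldn2, Cldn10, Cldn1 and Cldn8 and overlap for the other 5.

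**Figure D2:**
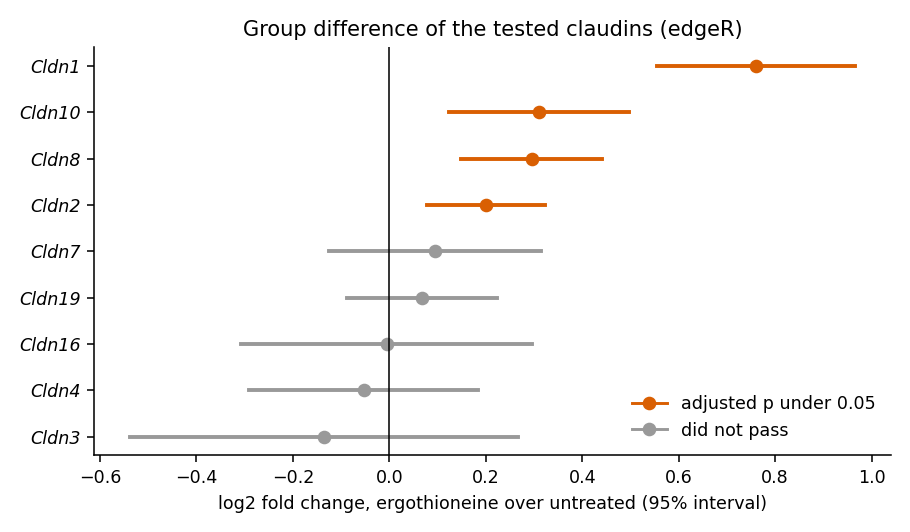
Log2 fold change of ergothioneine over untreated for the 9 tested claudins with 95% intervals from edgeR. Orange marks an adjusted p under 0.05. Cldn1 stands at 0.76 and the other called members between 0.20 and 0.31, while the intervals of the other 5 include 0.

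Cldn1 (ENSMUSG00000022512, chromosome 16, 26356642 to 26371841, minus strand, GRCm38) encodes claudin-1, the sealing claudin. It stood at 13.5, 16.0 and 17.7 CPM in the 3 untreated libraries and at 28.7, 26.7, 26.5 and 24.6 CPM in the 4 treated ones. The lowest treated kidney thus exceeded the highest untreated kidney by more than the whole range within either group. The group means were 15.8 ± 2.09 CPM (SD, n = 3) and 26.6 ± 1.65 CPM (SD, n = 4), a log2 fold change of 0.76 ± 0.10 (SE, 95% interval 0.55 to 0.97, edgeR adjusted p = 0.000116). The call held without each of the 7 libraries in turn, with log2 fold changes of 0.66 to 0.85 and edgeR adjusted p-values of 0.000128 to 0.000993. As a share of the 10 members' summed TPM, in which no scaling between libraries enters, Cldn1 took 1.35% to 1.70% in untreated libraries and 2.10% to 2.33% in treated ones. The shares of Cldn4 (1.85% to 2.42% and 1.62% to 1.83%) and Cldn7 (2.90% to 3.12% and 2.58% to 2.79%) did not overlap either and were lower in treated libraries. Those of the other 7 members overlapped. A share of a sum falls for a gene that keeps its level while others rise. In CPM Cldn4 and Cldn7 overlapped between the groups, with log2 fold changes of -0.05 and 0.09. Beside it, 1 of 10 markers of podocytes and parietal epithelium passed as higher and 0 as lower, with a list median of 0.13. Of 9 urothelial markers 0 passed (edgeR, with 0 at an unadjusted p under 0.05 and 0 by DESeq2). Among all genes tested 7.16% were called, 3.58% as higher. The podocyte and parietal list kept its higher call only when untreated library 1 or treated library 4 was the one left out, and with untreated library 2 left out 1 marker passed as lower. The 10 podocyte and parietal markers summed to 488 to 548 CPM in untreated and 521 to 598 CPM in treated libraries, and their part in the Cldn1 difference was not tested.

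The neighbour of Cldn1 on chromosome 16 is Cldn16. The 2 genes lie 91293 bases apart on opposite strands with 0 protein-coding genes between them, and Cldn16 had a log2 fold change of -0.0055 ± 0.14 beside the 0.76 of Cldn1. To show the letters before the starts of members that rose together, and of this neighbour that did not pass the test, the 250 bases upstream of the RefSeq start (GRCm38.p6) are printed 5′ to 3′ on the gene's strand. Capitals mark matches on either strand to any of 4 motifs, adjoining or overlapping matches running together. The first is the E-box, spelled CACGTG. The next is the GC box, the site of Sp1-type factors, spelled GGGCGG. The TATA box, where the basal machinery can bind, was searched as TATAAA. For HNF1, a transcription factor of renal epithelium, the half-site searched was GTTAAT. RefSeq held a promoter entry for 9 of the 10 members, and Cldn8 is named only.
Cldn1, chr16:26371840-26372089, minus strand: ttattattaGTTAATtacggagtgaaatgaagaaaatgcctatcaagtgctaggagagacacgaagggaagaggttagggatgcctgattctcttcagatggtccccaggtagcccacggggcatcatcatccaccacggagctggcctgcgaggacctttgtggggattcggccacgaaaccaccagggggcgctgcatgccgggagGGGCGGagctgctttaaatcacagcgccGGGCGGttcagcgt
Cldn2, chrX:139800558-139800807, plus strand: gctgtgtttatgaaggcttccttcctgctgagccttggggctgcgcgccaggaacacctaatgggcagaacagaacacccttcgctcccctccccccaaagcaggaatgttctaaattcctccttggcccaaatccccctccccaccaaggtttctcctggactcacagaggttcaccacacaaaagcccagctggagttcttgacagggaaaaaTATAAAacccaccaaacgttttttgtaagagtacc
Cldn10, first of 2 starts, chr14:118787621-118787870, plus strand: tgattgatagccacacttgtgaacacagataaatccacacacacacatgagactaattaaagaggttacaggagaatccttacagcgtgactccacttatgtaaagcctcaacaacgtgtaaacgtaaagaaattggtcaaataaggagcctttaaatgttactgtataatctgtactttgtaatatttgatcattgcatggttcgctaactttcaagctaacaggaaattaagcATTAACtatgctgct
Cldn16, chr16:26462885-26463134, plus strand: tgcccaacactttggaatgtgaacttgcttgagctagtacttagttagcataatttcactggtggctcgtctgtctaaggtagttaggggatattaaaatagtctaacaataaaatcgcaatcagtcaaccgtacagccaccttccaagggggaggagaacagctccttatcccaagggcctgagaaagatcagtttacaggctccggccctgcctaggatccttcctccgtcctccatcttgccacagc
The Cldn1 window held 2 GC boxes and 1 HNF1 half-site, the Cldn2 window 1 TATA box, and the Cldn10 window 1 HNF1 half-site, while the Cldn16 window held 0 of the 4 motifs. Such matches were not limited to called members: a GC box was also found before Cldn3, Cldn4, the second start of Cldn7 and both starts of Cldn19, and an HNF1 half-site before 1 of 3 Cldn14 starts. The second Cldn10 start had a window with 3 GC boxes and 72.4% G and C. That window is not printed because it overlaps an annotated exon of a Cldn10 transcript. The printed Cldn1 window also touches its gene in its last bases, as the highest annotated position of Cldn1 is 26371841. An E-box was in 0 of the members' windows. Over all 32851 promoter entries, windows of the same length held a GC box in 32.7%, a TATA box in 12.4%, an HNF1 half-site in 6.43% and an E-box in 6.02%. The windows also differed in composition, from 36.0% G and C before the first Cldn10 start to 55.6% before Cldn1, with a median of 52.4% over all entries. These matches are letters in a window and were not tested as binding sites.

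Cldn2 (ENSMUSG00000047230, chromosome X, 139800828 to 139811386, plus strand), the pore claudin of the proximal tubule, had the highest level of the 10. It was measured at 404, 386 and 415 CPM in untreated kidneys and at 442, 476, 457 and 471 CPM in treated ones. The groups lay side by side without overlap, with a gap that was small beside the level itself. The means of 402 ± 14.6 CPM (SD, n = 3) and 461 ± 15.2 CPM (SD, n = 4) differed by a log2 fold change of 0.20 ± 0.06 (SE, 95% interval 0.08 to 0.32, edgeR adjusted p = 0.0439). This call was lost without any single library (edgeR adjusted p = 0.0546 to 0.137), although the direction was the same in each of the 7. Of 10 proximal tubule markers tested 0 passed as higher and 1 as lower, beside 3.58% and 3.57% of all genes tested. The 1 was the dicarboxylate transporter Slc13a3 (-0.31 ± 0.08, edgeR adjusted p = 0.0189), and the list median was -0.04. Leaving out untreated library 1 or 3, or treated library 1, ended the Slc13a3 call (edgeR adjusted p = 0.0835, 0.0676 and 0.0755). Of the 10 log2 fold changes 4 were above 0 and 6 below. Slc5a2, the glucose transporter gene of the early proximal tubule, was named after its values were seen and is 1 of those above 0. It was at 315, 281 and 316 CPM untreated and at 343, 369, 344 and 340 CPM treated. The Slc5a2 groups did not overlap, and its log2 fold change of 0.20 ± 0.06 missed the threshold (edgeR adjusted p = 0.0574). Groups lay apart with the treated one higher in 1 of the 10 markers and lower in 1, beside 9.46% higher over all genes tested. Slc5a2 passed as higher by DESeq2, with upper-quartile factors and with no filter on low counts (adjusted p = 0.0287, 0.0451 and 0.0249). The endocytic receptor gene Lrp2 stood at -0.09 ± 0.09 and the androgen-regulated Kap at 0.12 ± 0.10.

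Cldn10 (ENSMUSG00000022132, chromosome 14, 118787908 to 118875489, plus strand) is expressed from alternative first exons as a cation-selective form of the thick ascending limb and an anion-selective form of the proximal tubule. A count per gene does not separate them. Its levels were 99.9, 124 and 114 CPM untreated and 146, 131, 156 and 125 CPM treated. The lowest treated and the highest untreated library almost touched. Means of 113 ± 12.1 CPM (SD, n = 3) and 139 ± 14.1 CPM (SD, n = 4) gave a log2 fold change of 0.31 ± 0.09 (SE, 95% interval 0.12 to 0.50, edgeR adjusted p = 0.0477). The call held without untreated library 2 (edgeR adjusted p = 0.0293) and without treated library 4 (0.018), and was lost without each of the other 5 libraries (0.0599 to 0.147). Annotated Cldn10 transcripts measure 1148, 1031 and 2128 nt. Only the last was matched to a RefSeq start, the downstream one. The mean effective length behind the deposited TPM was taken as counts over TPM, relative to the same quotient of Cldn8 with its single transcript. It was 0.462 to 0.471 in untreated and 0.47 to 0.482 in treated libraries, so the groups overlapped. An effective length is not a transcript length, so these ratios do not convert to nt.

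The magnesium and calcium pore genes of the thick ascending limb did not pass. Cldn16 (ENSMUSG00000038148, chromosome 16, 26463135 to 26482765), whose loss in humans causes renal magnesium wasting, was at 6.97, 7.24 and 5.71 CPM untreated and at 5.79, 7.49, 6.54 and 6.60 CPM treated. The groups covered the same range. The 95% interval of its log2 fold change ran from -0.31 to 0.30 (edgeR adjusted p = 0.99), so a difference of the size seen in Cldn2 or Cldn8 in either direction lay within it. Cldn19 (ENSMUSG00000066058, chromosome 4, 119255414 to 119262438), which encodes the partner of claudin-16 in the pore, was at 38.9, 34.7 and 34.8 CPM untreated and at 40.8, 38.3, 35.4 and 37.0 CPM treated. Its log2 fold change was 0.07 ± 0.07 (SE, 95% interval -0.09 to 0.22, edgeR adjusted p = 0.674). An antisense gene, Gm12927, shares 90 exon bases with Cldn19 and had at most 4 counts in any library, and Wbscr25, antisense to Cldn3 over 40 exon bases, had at most 2. Cldn14 (ENSMUSG00000047109, chromosome 16, 93919031 to 94008837) was close to absent from the counts, with 0, 1 and 0 counts in the untreated and 3, 2, 1 and 1 counts in the treated libraries. It was not tested, and 0 counts in a library allow a level of up to 3 counts, which equals 0.152 to 0.201 CPM across the libraries; this limit covers counting error only. The calcium-sensing receptor gene Casr, which acts upstream of Cldn14 in the thick ascending limb, was named after its values were seen. It was at 104.8, 104.7 and 94.6 CPM untreated and at 129, 130, 105.5 and 104.5 CPM treated. The groups overlapped, with a log2 fold change of 0.21 ± 0.08 that did not pass (edgeR adjusted p = 0.162).

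The thick ascending limb list, 10 markers other than claudins, had a median of 0.17, with 9 log2 fold changes above 0 and 1 below. The groups did not overlap, with the treated one higher, in 4 of the 10 (0 lower), beside 9.46% of all genes tested. Of these markers 0 passed as lower and 1 passed as higher, beside 3.58% of all genes tested. It was Slc12a1, the sodium-potassium-chloride cotransporter, at 1302 ± 90.8 CPM (SD, n = 3) and 1652 ± 140 CPM (SD, n = 4), a log2 fold change of 0.34 ± 0.08 (edgeR adjusted p = 0.013). Leaving out untreated library 3 or either of treated libraries 1 and 2 ended the Slc12a1 call (edgeR adjusted p = 0.0674, 0.0665 and 0.0574), and 3 of the 10 markers passed without untreated library 2 and 2 without treated library 3. Umod and Egf, both highly expressed in this segment, stood at 0.05 ± 0.08 and 0.03 ± 0.08. The 10 markers summed to 6328 to 6688 CPM untreated and 6537 to 7753 CPM treated. Their part in the Cldn10 difference was not tested.

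Among the claudins of the distal nephron and collecting duct, Cldn8 was higher and Cldn3, Cldn4 and Cldn7 did not pass. Cldn8 (ENSMUSG00000050520, chromosome 16, 88560828 to 88563183, minus strand) encodes the claudin that holds claudin-4 in the junction of collecting duct cells. It was at 65.1, 79.6 and 66.6 CPM in untreated and at 84.4, 87.6, 87.1 and 86.2 CPM in treated kidneys. The 4 treated kidneys lay close together above 3 untreated ones that were more spread. Means of 70.4 ± 7.997 CPM (SD, n = 3) and 86.3 ± 1.39 CPM (SD, n = 4) gave a log2 fold change of 0.30 ± 0.07 (SE, 95% interval 0.15 to 0.44, edgeR adjusted p = 0.0139). The call was lost without untreated library 1 or untreated library 3 (edgeR adjusted p = 0.0832 and 0.0616), and held without each of the other 5 libraries.

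Cldn4 (ENSMUSG00000047501, chromosome 5, 134945119 to 134946934, minus strand), which encodes the chloride-conducting partner of claudin-8, was at 12.5, 11.5 and 9.94 CPM untreated and at 10.3, 10.6, 11.7 and 11.1 CPM treated. All treated values fell inside the untreated range, and the log2 fold change was -0.05 ± 0.11 (SE, 95% interval -0.29 to 0.18, edgeR adjusted p = 0.852). Cldn7 (ENSMUSG00000018569, chromosome 11, 69964779 to 69967885, plus strand), whose product lies along the basolateral membrane of collecting duct cells, was at 11.1, 10.3 and 10.7 CPM untreated and at 11.98, 11.2, 11.7 and 10.7 CPM treated. It overlapped through a single treated library, with a log2 fold change of 0.09 ± 0.10 (edgeR adjusted p = 0.681). Cldn3 (ENSMUSG00000070473, chromosome 5, 134986214 to 134987472, plus strand), a sealing claudin, varied most within groups, from 4.68 to 7.76 CPM untreated and from 4.31 to 6.98 CPM treated. That equalled a coefficient of variation of 25.4% and 19.8%, against 3.43% and 4.83% for Cldn7 and 3.62% and 3.29% for Cldn2. Its log2 fold change was -0.13 ± 0.19 (SE, 95% interval -0.54 to 0.27, edgeR adjusted p = 0.759). Cldn3 and Cldn4 lie 39279 bases apart on opposite strands with 0 protein-coding genes between them, as neighbours like Cldn1 and Cldn16.

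Whether claudins of a segment moved apart was examined by the ratio of their counts within each library, in which no scaling enters. The 9 pairs were all those among Cldn10, Cldn16 and Cldn19 and among Cldn8, Cldn7, Cldn4 and Cldn3. A count of Cldn10 does not separate its proximal tubule form, so its ratios to Cldn16 and Cldn19 are not confined to a single segment. The log2 ratio of Cldn8 to Cldn4 was 2.38, 2.80 and 2.74 in untreated and 3.04, 3.05, 2.90 and 2.95 in treated libraries. This was the pair whose groups did not overlap, with a difference of 0.35, the smallest p that the 35 assignments of 7 libraries allow (exact permutation test, two-sided, p = 0.0286) and an adjusted p of 0.257 over the 9 pairs. The ratio of Cldn10 to Cldn16 differed by 0.31 (exact permutation p = 0.2, adjusted 0.343) and that of Cldn10 to Cldn19 by 0.24 (0.229, adjusted 0.343). The other 6 pairs had exact permutation p-values of 0.143 to 0.771. With 9 pairs and 35 assignments a single ratio cannot reach an adjusted p under 0.257, so this test cannot say whether called and uncalled members of a segment differed.

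By deposited TPM, which divides by transcript length, Cldn2 and Cldn10 together made up 73.5% to 76.6% of the summed level of the 10 members. Cldn2 had a mean of 154 TPM over the 7 libraries (130 to 195), Cldn10 127 (101 to 159), Cldn8 37.4 (27.8 to 47.0), Cldn19 18.6 (14.4 to 25.1) and Cldn7 10.6 (8.43 to 14.1). Each of these exceeded the next in 7 of 7 libraries. Cldn16 followed at 8.12 TPM, below Cldn7 and above Cldn4 in 7 of 7 libraries. Cldn4 at 7.21, Cldn1 at 7.02 and Cldn3 at 6.06 were not separated: Cldn4 exceeded Cldn1 in 3 of 7 libraries and Cldn1 exceeded Cldn3 in 5 of 7. Cldn14 was last, at 0 to 0.33 TPM. Counts per kilobase of all annotated exon bases gave the same first 4 genes and Cldn14 last, while Cldn7, Cldn16, Cldn4, Cldn3 and Cldn1 changed places. With TPM on its own scale the direction turned in 3 of the called genes, and Cldn2, Cldn8 and Cldn10 had log2(TPM + 1) differences of -0.17, -0.07 and -0.08 beside a median of -0.31 over all genes. On TPM rescaled over protein-coding genes the differences were 0.20, 0.30 and 0.29, and 0.70 for Cldn1.

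**Figure D3:**
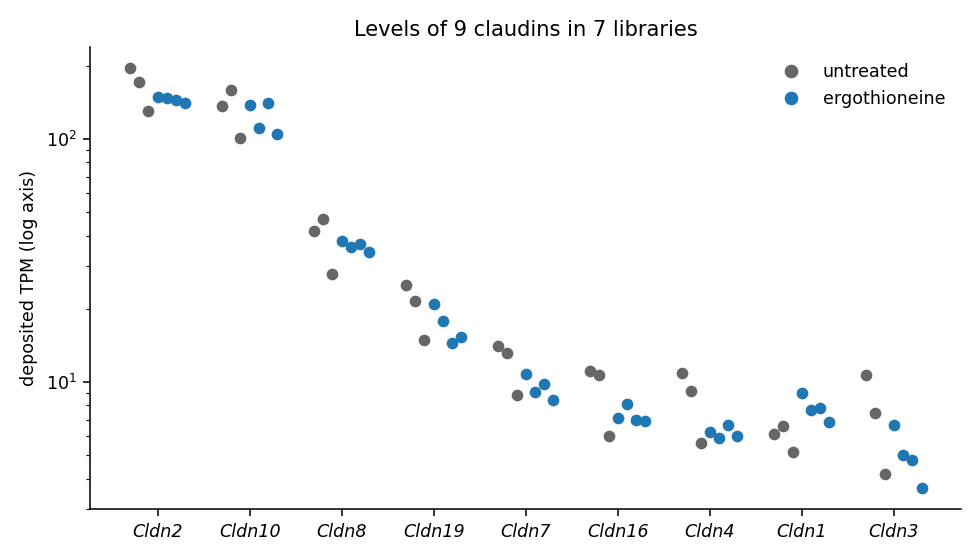
Deposited TPM of 9 claudins on a log axis, ordered by mean. Each point is a library, in grey for untreated and blue for ergothioneine-treated. Cldn2 and Cldn10 stand above 100 TPM in all 7 libraries, and Cldn4, Cldn1 and Cldn3 overlap.

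Claudins outside the nephron group gave no call. Of the other 24 symbols in a list of mouse claudins 6 had enough counts to be tested and 0 passed by edgeR (0 by DESeq2). Over all genes tested by edgeR 7.16% were called, and 6 genes are too few to tell 0 calls from that share. Among them 1 had an unadjusted p under 0.05, and it was Cldn12. Cldn12, a broadly expressed claudin, was the best counted of them at 139, 128 and 133 CPM untreated and 121, 122, 122 and 111 CPM treated. All treated values were below all untreated ones, but the log2 fold change of -0.16 ± 0.06 did not pass (edgeR adjusted p = 0.105). Such groups, apart with the treated one lower, were found in 1 of the 6 and in 1403 of the 15399 genes tested. Cldn5, the endothelial claudin, was at 5.29 ± 0.216 CPM (SD, n = 3) and 5.05 ± 0.784 CPM (SD, n = 4), and Cldn15, a cation pore known from intestine, at 9.27 ± 0.911 and 9.46 ± 0.845 CPM. Cldn11, Cldn18 and Cldn34c1 stayed under 3 CPM in the mean of either group and did not pass. Of the 18 symbols not tested 10 were at 0 counts in all 7 libraries.

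In a list of 27 scaffold, adaptor and transmembrane partners 2 passed as higher and 0 as lower (7.41% called, beside 7.16% of all genes tested), with a list median of 0.09. The groups did not overlap, with the treated one higher, in 6 of the 27 (0 lower), beside 9.46% of all genes tested. Ildr1, which encodes a protein of the junction where 3 cells meet, rose from 23.3 ± 0.552 (SD, n = 3) to 30.3 ± 0.538 CPM (SD, n = 4), a difference of 0.38 ± 0.07 on the log2 scale (edgeR adjusted p = 0.0035). Cgnl1, which encodes the adaptor paracingulin, rose from 383 ± 13.6 CPM in 3 mice to 468 ± 31.9 CPM in 4 (log2 0.29 ± 0.06, edgeR adjusted p = 0.00967). Both calls held without each of the 7 libraries in turn and were lost when untreated libraries 1 and 2 were left out together (edgeR adjusted p = 0.0882 and 0.0729). Ocln, which encodes occludin and was named after its values were seen, was at 35.9, 33.8 and 33.7 CPM untreated and 38.8, 39.5, 39.0 and 38.9 CPM treated. Its groups did not overlap, but the log2 fold change of 0.18 ± 0.06 did not pass (edgeR adjusted p = 0.11). The polarity protein gene Patj (-0.07 ± 0.05) and Ildr2 (0.0035 ± 0.07) were among the best counted members that did not pass.

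A list of 18 genes drawn up as claudin regulators, which also holds ion channels, had a median of 0.14. In it 0 genes passed as lower and 3 passed as higher, beside 3.58% of all genes tested. They were Trpv5, the apical calcium channel of the distal tubule (log2 fold change 0.42 ± 0.09, edgeR adjusted p = 0.00824), Vdr, the vitamin D receptor (0.26 ± 0.07, 0.025), and Wnk4, a kinase that phosphorylates claudins (0.32 ± 0.09, 0.0417). The 3 became 1 without untreated library 1 or treated library 1. Trpv5 lost its call without untreated library 1 (edgeR adjusted p = 0.0508), and Vdr when untreated library 2 or 3, or treated library 1, was absent (0.0951, 0.0556 and 0.105). Wnk4 overlapped between the groups and kept its call without a single library only for treated library 3. Klhl3, whose product directs claudin-8 for degradation, was named after its values were seen and did not pass (30.8 ± 2.94 CPM untreated, 36.6 ± 3.06 CPM treated, log2 difference 0.25 ± 0.08, edgeR adjusted p = 0.083), but passed without untreated library 3 (0.0397).

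In the distal convoluted and connecting tubule 3 of 10 passed as higher and 0 as lower, beside 3.58% and 3.57% of all genes tested. They were the kallikrein gene Klk1 (0.32 ± 0.06, edgeR adjusted p = 0.00561) and Trpv5 and Wnk4, both already counted among the claudin regulators above. All 10 log2 fold changes were above 0, with a median of 0.26. The 3 calls became 1 without untreated library 1. In intercalated cells 4 of 10 passed as higher and 0 as lower, the anion exchangers Slc4a1 (0.59 ± 0.09) and Slc26a4 (0.38 ± 0.08) and the proton pump subunits Atp6v1g3 (0.63 ± 0.15) and Atp6v0d2 (0.38 ± 0.09), with a median of 0.24. Without untreated library 3 or treated library 1 the 4 became 2. In collecting duct principal cells, which hold Cldn8 and Cldn4, 1 of 10 passed as higher, the sodium channel subunit Scnn1a (0.37 ± 0.08, edgeR adjusted p = 0.0175), with a median of 0.13 and the water channel gene Aqp2 at 0.23 ± 0.13. Scnn1a lost that call when untreated library 2 or 3, or treated library 1, was left out (edgeR adjusted p = 0.0872, 0.0926 and 0.058). Summed CPM ran from 3158 to 3332 untreated and 3611 to 4154 treated for the first list, 274 to 281 and 315 to 358 for the second, and 557 to 593 and 575 to 644 for the third. The part of these cells in the Cldn8 difference was not tested. These signs did not hold on log2(TPM + 1) for Wnk4 (-0.13), Klk1 (-0.07), Scnn1a (-0.0070), Vdr (-0.11), Cgnl1 (-0.08) and Slc12a1 (-0.03).

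**Figure D4:**
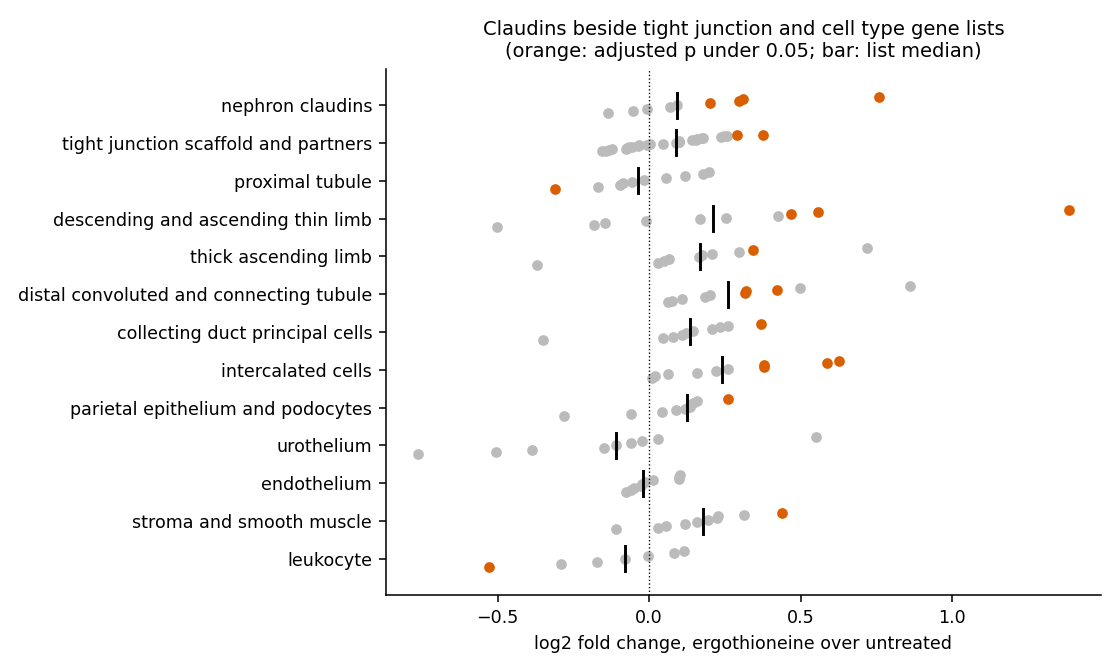
Log2 fold change of ergothioneine over untreated for each tested gene of the nephron claudin, tight junction and cell type lists, the adipocyte list not drawn. Points are genes, orange where the adjusted p was under 0.05, and the black bar is the list median. The claudin list holds 4 orange points to the right of 0, Cldn1 farthest, and the distal and intercalated lists have all their points to the right of 0.

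The genes whose log2 CPM followed a called claudin most closely over the 7 libraries were sought among 12787 others, each with a symbol and averaging 1 CPM or more (log2 CPM not under 0). These correlations describe 7 libraries that include the group difference itself. For Cldn1 they were Ttc22 (r = 0.996), Trpv5 (0.993) and Bax (0.993), and all 3 were called higher, Ttc22 at 1.27 ± 0.18 (edgeR adjusted p = 0.000345). The Bax call was kept only when treated library 3 or 4 was the one left out (otherwise edgeR adjusted p = 0.0506 to 0.113). For Cldn8 they were Chchd4 (0.989), Defb1 (0.985), a defensin gene of distal tubule cells, and Rdh10 (0.979); the last 2 were called higher and Chchd4 did not pass. The Defb1 call held only when untreated library 1 or 2 was the one left out (otherwise edgeR adjusted p = 0.0941 to 0.146). For Cldn2 they were Tex264 (0.996), Acsl5 (0.988) and Lrfn3 (0.984), and Tex264 did not pass while the other 2 were called higher. Lrfn3 kept that call only when untreated library 3 was the one left out (otherwise edgeR adjusted p = 0.0582 to 0.149) and missed it by DESeq2 (adjusted p = 0.0669). For Acsl5 it ended when untreated library 1 or 2, or treated library 2 or 4, was left out (edgeR adjusted p = 0.0723 to 0.129). For Cldn10 they were Tceal9 (0.97), Rps27l (0.964) and Pigx (0.96), of which 0 passed the test between groups. Rps27l missed the threshold (0.28 ± 0.09, edgeR adjusted p = 0.0602). It passed as higher with no filter on low counts, with replicate number as a block and without treated library 4 (edgeR adjusted p = 0.00667, 0.0198 and 0.0114).

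**Figure D5:**
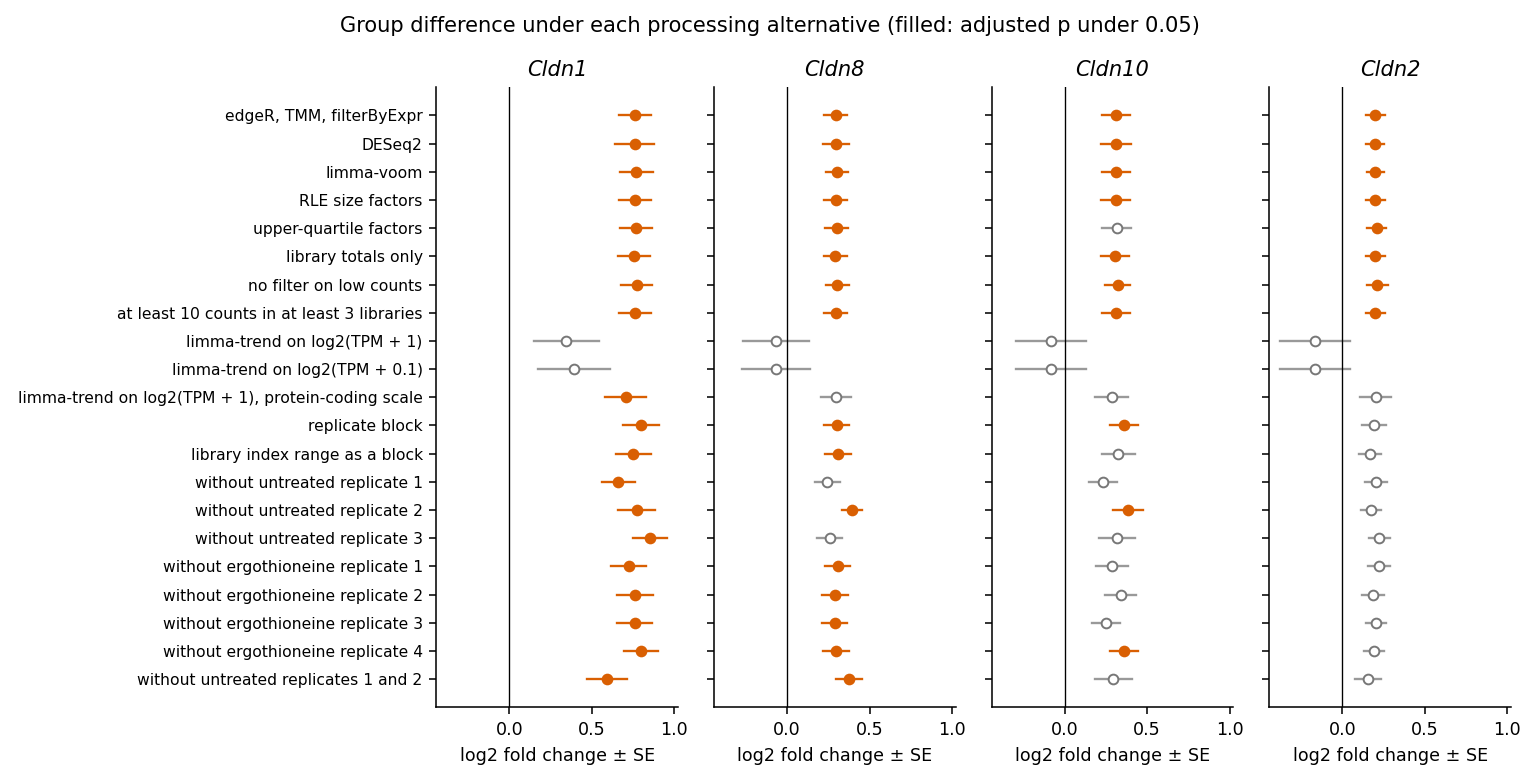
Log2 fold change ± SE of the 4 called claudins under the analysis as reported (top) and 20 processing alternatives. Filled orange points have an adjusted p under 0.05. Cldn1 is filled in all but the log2(TPM + 1) and log2(TPM + 0.1) fits, while Cldn2 is open in every fit that leaves out a library.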

How the data were processed

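Kidneys had been frozen before RNA extraction, and sequencing libraries were stranded after removal of ribosomal RNA, per the labels' protocols. The authors deposited expected counts and TPM per Ensembl gene; 3.61% of the count values were not whole. Per the submitters' processing notes the tools include STAR 2.7.10a, RSEM 1.3.1 and Salmon 1.10.1 and the build GRCm38; which annotation was counted, and with which strand setting, is not given in the sources used here. Symbols came from GENCODE M21 (45143 of 45706 identifiers).

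Expected counts were rounded and tested in R 4.3.3 with edgeR 4.0.16 (filterByExpr, TMM, robust quasi-likelihood F test, Benjamini-Hochberg over 15399 genes, threshold 0.05). Each SE was taken as the effect over root F. The alternatives used limma 3.58.1 and DESeq2 1.42.0, other scalings and filters, TPM, blocks and left-out libraries. The test was tested on simulated data for these 15399 genes and recovered 26.7% of 1.25-fold, 64% of 1.5-fold and 95.3% of 4-fold changes. Libraries of a group differed by 7.48 to 25.4 times sampling noise (chi-square per degree of freedom), so none was a copy. The members and lists were chosen with earlier results of these data known. All members are named, with every tested other claudin and up to 4 called and 2 uncalled genes per further list. The 3 genes most like each called member are also named. Casr, Klhl3, Ocln and Slc5a2 were added after their values were seen, and each had a positive log2 fold change that did not pass. Some genes that the rule names are not reported here.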

Additional observations from a re-analysis of the deposited data

How the results depend on the processing

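Counts of genes called ran from 692 to 1103 over the 7 left-out libraries, beside 1102 as reported, and were 276 on TPM rescaled over protein-coding genes, 481 and 1741 at thresholds of 0.01 and 0.1, and 556 without untreated libraries 1 and 2. On log2(TPM + 1) 1538 genes were called, 3.51% of them higher, against 50.1% higher as reported. Of the nephron claudins 1 to 3 were called with a library left out and 0 with either TPM pseudocount (1 or 0.1). On TPM rescaled over protein-coding genes 1 was called, and at a threshold of 0.01 also 1. With the range of numbers in the library names (14 to 23 or 44 to 50) as a block 2 were called. Untreated libraries 1 and 2 and treated library 1 fell in the higher range and the others in the lower, so range and treatment were not balanced. With that block Cldn2 and Cldn10 lost their calls (edgeR adjusted p = 0.153 and 0.0954). Cldn1 kept its call in 20 of 22 alternatives, Cldn8 in 16, Cldn10 in 10 and Cldn2 in 8.

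With pseudocounts of 1 and 0.1 on TPM the sign turned for Cldn2 (-0.1652 and -0.1661), Cldn8 (-0.06829 and -0.06909), Cldn10 (-0.08326 and -0.08376), Cgnl1 (-0.07841 and -0.07918), Vdr (-0.1085 and -0.1094), Wnk4 (-0.134 and -0.1351), Slc12a1 (-0.03418 both times), Klk1 (-0.06504 and -0.06507), Scnn1a (-0.006952 and -0.006494), Bax (-0.004301 and -0.00384) and Acsl5 (-0.1217 and -0.1267). The median of all genes was then -0.306 and -0.366, so all 11 lay above it.

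The replicate numbers do not pair the mice in the labels, and same-numbered libraries had correlations of 0.0272, -0.0679 and 0.00274 between their deviations from the group means. With the replicate block 809 genes and 3 nephron claudins were called. Cldn14, with at most 3 counts in a library, is below what this depth can test.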

Other observations

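Among 10 thin limb markers 3 were called higher and 0 lower, beside 3.58% and 3.57% of all genes tested. The 3 include the urea transporter gene Slc14a2 (0.47 ± 0.12, edgeR adjusted p = 0.0201) and Fst, which encodes follistatin (1.38 ± 0.32, 0.015), as log2 fold changes. Without untreated library 3 the count was 1, and both genes lost their calls (edgeR adjusted p = 0.0705 and 0.0676). Fst also lost its call without untreated library 2 (0.0728), and Slc14a2 without treated library 2 or 4 (0.0528 and 0.051). Endothelial markers gave 0 calls of 10 by edgeR and by DESeq2 and 0 at an unadjusted p under 0.05, with a list median of -0.02. Among 7 tested leukocyte markers Ptprc, the pan-leukocyte gene, was lower (26.5 ± 2.99 to 18.4 ± 2.35 CPM, -0.53 ± 0.11, edgeR adjusted p = 0.00551) and 0 were higher. Among 10 markers of stroma and smooth muscle Acta2, the smooth muscle actin gene, was higher (0.44 ± 0.11, edgeR adjusted p = 0.0163), a call lost without untreated library 1 or treated library 2 (0.0925 and 0.0671).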
